A study of Mus musculus with 8 samples.

Results

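The genotype difference in microglia of mice with experimental autoimmune encephalomyelitis (EAE) was read from 1 pair of expression arrays, the array labelled icKO EAE against the array labelled FL EAE. Of the 30707 genes named on the array, the 16293 whose level lay above the median of the named probe sets on at least 1 of the 2 arrays were described. Both arrays held microglial RNA from C57Black/6J mice with EAE. The icKO mice were deficient in connexin Cx47 through a conditional knockout that the series title places in oligodendroglia, and the FL mice served as the control genotype. The series has 6 further arrays, an icKO and a control array each for naive mice, for EAE with the antirheumatic drug iguratimod, and for EAE with the mark p50, whose meaning the labels do not give and whose control is labelled F/F. Each group is 1 array, so a difference between the EAE arrays has no replicate check and is given as a description with no test. The Cre line and its induction, the day and score of disease, the number of animals behind an array and the way the cells were isolated are not given in the sources used here.

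EAE is an autoimmune model of multiple sclerosis in which T cells directed at myelin enter the central nervous system, followed by monocytes and neutrophils from the blood. Microglia, the resident macrophages of that tissue, leave their homeostatic programme in such inflammation, and many of them take up antigen presentation, chemokine secretion and the genes known as disease-associated. Cx47 is a gap junction protein of oligodendrocytes, through which these cells couple with astrocytes and with each other.

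Values are given as levels, log2(deposited intensity + 16), and as differences of levels, icKO minus control, in which 1 stands for a 2-fold difference and dim genes are understated. Median intensity on the 8 arrays ran from 243 to 269. The labelled cell type was checked against 12 microglial markers, all of them described. The fractalkine receptor Cx3cr1 lay at 18.27 in the control and 18.15 in icKO, and Tmem119, a marker of resident microglia, at 10.90 and 10.71. Over all 12 the median difference was -0.48, with 11 lower in icKO. No marker of neurons and no marker of endothelial cells or pericytes passed the brightness filter, and of 15 oligodendrocyte markers 1 passed, Mag, with a difference of 0.02. Of 14 astrocyte markers 5 passed, with a median difference of -0.12, among them Lcn2, which is also a neutrophil marker. The myelin gene Mbp was below the filter at 7.93 and 8.09. Markers of blood leukocytes were present on both EAE arrays and are given beside the groups of genes they move with. On the control array the 23 neutrophil markers had a summed intensity of 954747, above the 623020 of the 12 microglial markers. In icKO the sums were 124981 and 559412. The neutrophil gene S100a8 lay at 18.88 in the control, above Cx3cr1. With S100a9, at 17.69 in the control, it made up most of the neutrophil sum on both arrays. The sums are therefore no measure of the numbers of cells.

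Most genes lay close together on the 2 arrays. The median difference was -0.01, the quartiles were -0.18 and 0.18, and 87.7% of genes differed by less than 0.5 on the log2 scale. At least a 2-fold difference was seen for 230 genes that were higher in icKO, 1.41% of those described, and for 96 that were lower, 0.589%. Many of these were small RNAs, predicted genes or chemosensory receptors, kinds that were counted but not named. After them, 65 higher and 21 lower genes remained, out of 8832 of the named kinds. At least a 4-fold difference was left for 12 of the higher and 9 of the lower genes. The 65 genes included chemokines, immediate early genes, class II antigen presentation genes and disease-associated genes. The 21 were led by granule proteins of neutrophils. A member of a list can pass the brightness filter through the array on which it is high, so counts over described members are descriptions, given with the median over all members on the array where the latter is much smaller. In bulk RNA, fewer cells of a type and less RNA per cell cannot be told apart.

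**Figure D1:**
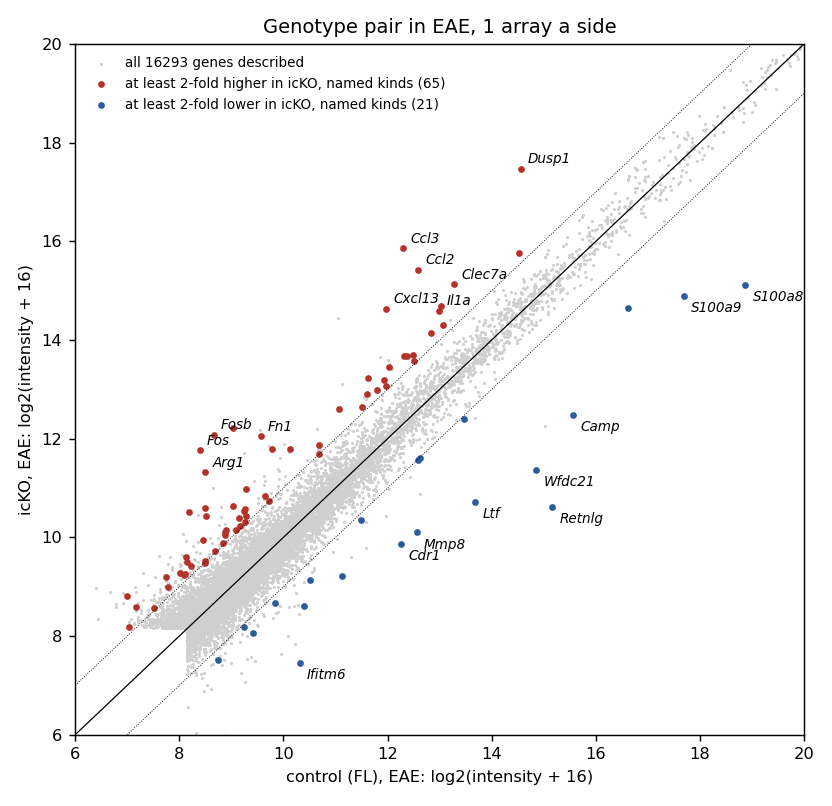
Level on the icKO EAE array (vertical axis) against the control EAE array (horizontal axis), both log2(intensity + 16), for the 16293 genes described; the solid line marks equal levels and the dotted lines a 2-fold difference. The 65 higher genes of named kinds are red and the 21 lower ones blue: Ccl3, Fos and Dusp1 stand above the band, and Retnlg, S100a8 and Wfdc21 below it.

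Immediate early transcription factors, the genes that are switched on within minutes of a stimulus without new protein synthesis, were higher in icKO. Of 13 members described, 8 were at least 2-fold higher and none lower, with a median difference of 1.15 against -0.01 over all genes. The AP-1 subunits led. Fos lay at 8.40 in the control and 11.77 in icKO, and between 9.85 and 12.90 (median 10.98) on the 6 other arrays. The difference of 3.38, or 10.4-fold, thus came with a control EAE array below all 7 others, while the icKO level was inside the range of the rest. Fosb, a further AP-1 subunit, lay at 8.66 and 12.08, and between 10.38 and 14.86 (median 12.13) elsewhere. Its 10.7-fold difference had the same form, with the control EAE array lowest. Jun, the partner of Fos in AP-1, lay at 10.12 and 11.78, and between 11.43 and 14.45 (median 12.62) elsewhere. Here too the control EAE array was the lowest of 8. Atf3, a stress-induced factor that binds cyclic AMP response elements, differed by 1.31, Egr1, a zinc finger factor induced by growth signals, by 1.27, and Klf2 and Klf6, Krüppel-like factors, by 1.20 and 1.15. Myc, the growth regulator, was the only described member below 0, at -0.24. With all 21 members on the array, dim ones included, the median was 0.48.

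The immediate early genes that switch such signals off again followed the same order. All 12 described members were above 0, with a median of 0.88, and 4 were at least 2-fold higher. Rgs1, a brake on G protein signals of chemokine receptors, lay at 9.04 in the control and 12.21 in icKO, and between 10.88 and 12.94 (median 11.57) on the other arrays. Dusp1, the phosphatase that inactivates p38 and JNK kinases, lay at 14.56 and 17.48, and between 16.41 and 18.43 (median 17.53) elsewhere. In both, the control EAE array was the lowest of 8 and lay more than 1 below the next. Zfp36, which destabilises cytokine messages, differed by 1.30, and the antiproliferative gene Btg1 by 1.11. With all 22 members on the array the median was 0.33. Against the naive array of their own genotype, the control EAE array differed by -2.22 in Fos and -2.64 in Dusp1, whereas the icKO EAE array differed from icKO naive by 0.27 in Fos and -0.38 in Dusp1. These values share the EAE arrays with the differences above.

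Promoter windows are shown for 4 of these genes and, for contrast, for the neutrophil gene S100a8, because several immediate early genes had their lowest level on the control EAE array. The windows are the 250 bases before the RefSeq start. Capitals mark the cyclic AMP response element TGACGTCA and its shorter form TGACG, on either strand, the CArG box bound by serum response factor, and the TATA box TATAAA.
Fos (GRCm38.p6 chr12:85473640-85473889, + strand): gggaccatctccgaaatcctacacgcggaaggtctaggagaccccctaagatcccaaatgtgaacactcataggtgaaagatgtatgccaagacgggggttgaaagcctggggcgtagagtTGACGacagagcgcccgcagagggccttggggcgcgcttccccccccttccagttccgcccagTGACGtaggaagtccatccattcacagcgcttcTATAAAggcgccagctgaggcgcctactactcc
Fosb (GRCm38.p6 chr7:19310046-19310295, - strand): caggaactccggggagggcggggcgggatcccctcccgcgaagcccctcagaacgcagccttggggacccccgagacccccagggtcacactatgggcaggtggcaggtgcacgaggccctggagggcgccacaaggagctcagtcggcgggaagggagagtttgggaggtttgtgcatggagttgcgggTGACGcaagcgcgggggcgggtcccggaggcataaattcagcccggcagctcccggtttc
Dusp1 (GRCm38.p6 chr17:26508473-26508722, - strand): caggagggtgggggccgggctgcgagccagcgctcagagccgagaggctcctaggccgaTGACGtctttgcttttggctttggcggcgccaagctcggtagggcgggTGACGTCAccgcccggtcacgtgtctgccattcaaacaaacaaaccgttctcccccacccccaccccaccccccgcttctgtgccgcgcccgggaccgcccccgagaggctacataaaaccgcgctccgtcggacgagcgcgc
Zfp36 (GRCm38.p6 chr7:28379229-28379478, - strand): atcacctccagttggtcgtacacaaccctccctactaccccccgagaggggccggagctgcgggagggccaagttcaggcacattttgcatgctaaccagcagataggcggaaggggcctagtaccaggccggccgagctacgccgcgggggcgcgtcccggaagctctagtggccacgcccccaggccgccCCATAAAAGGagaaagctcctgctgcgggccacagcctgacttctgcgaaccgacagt
S100a8 (GRCm38.p6 chr3:90668821-90669070, + strand): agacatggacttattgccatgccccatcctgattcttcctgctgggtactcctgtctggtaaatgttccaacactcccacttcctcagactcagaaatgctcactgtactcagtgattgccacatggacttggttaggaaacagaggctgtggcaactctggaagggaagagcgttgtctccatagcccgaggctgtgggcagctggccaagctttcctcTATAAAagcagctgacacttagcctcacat
In Fos, TGACG begins 129 and 66 bases before the start and TATAAA 33 bases before it. In Fosb, TGACG begins 60 bases before the start. Dusp1 holds TGACG at 191 bases and the full TGACGTCA, which includes the shorter form, at 143 bases. Zfp36 holds a CArG box at 58 bases, and S100a8 holds only the TATA box, at 30 bases. The genes shown are examples, and the windows of Jun and Klf6, which are not shown, hold none of the marked motifs.

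Counts over all windows used 300 bases, with 50 after the start. Of the 25 described immediate early genes, 20 had a window, and 13 of these (65%) held TGACG in at least 1 window, against 30.6% of the 9005 described genes with a window and 23% of all 27025 genes. Some of the 20 have several windows, which raises this share; over windows it was 51.7% of 29, against 27.5% of 11060. TGACGTCA was found in 3 of the 20 genes (15%, against 3.25% of described genes) and a CArG box in 2 (10%, against 1.54%). The control EAE array was the lowest of 8 for 21 higher genes of named kinds, of which 17 had a window. Of these 17, 7 (41.2%) held TGACG and 1 (5.88%) a CArG box. Among the 17 neutrophil markers with a window, none held TGACG and 5 (29.4%) held TATAAA, against 12.7% of described genes. AP-1 sites, TGANTCA on either strand, were found in 9 of 48 genes at least 2-fold higher in icKO (18.8%). They were found in none of 18 genes that were lower and in 7.56% of described genes. TGACG was less common in both sets than the 30.6% of described genes, at 10 of the 48 (20.8%) and 1 of the 18. TATAAA was found in 14 of the 48 and 7 of the 18 (29.2% and 38.9%), more often than in described genes in both directions. The motif of the transcription factor NF-kB was found in 5 of the 48, 4 of the 18 and 950 of the 9005 described genes. A match is a description of the letters in the window and no evidence of binding.

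Chemokines, the ligands that draw leukocytes into tissue, formed the other leading group. Of 12 CC chemokines described, 5 were at least 2-fold higher and none lower (median 0.39, and 0.20 with all 16 on the array), and of 7 CXC chemokines, 4 were higher and none lower (median 1.05). Ccl3, a ligand of Ccr1, lay at 12.31 in the control and 15.86 in icKO, and between 12.83 and 15.92 (median 14.21) on the other arrays, which made it the gene of the named kinds with the largest difference upward, 11.8-fold. The control EAE array was the lowest of 8, and the icKO p50 array was as high as icKO EAE. Ccl2, the main attractant of Ccr2+ monocytes, lay at 12.59 and 15.42, and between 10.67 and 13.51 (median 12.10) elsewhere. It differed by 2.84, and the icKO EAE array stood 1.92 above every other array. Ccl4, the close relative of Ccl3, differed by 1.92, and the monocyte attractants Ccl8 and Ccl7 by 1.18 and 1.04. Ccl5, a T cell attractant, and Ccl12, a further Ccr2 ligand, did not follow, at -0.13 and -0.20.

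Among the CXC chemokines the highest was Cxcl13, which draws B cells into follicles, at 11.98 in the control and 14.63 in icKO. It reached 14.53 on the icKO array of the iguratimod pair but 9.72 on the control array of that pair. Cxcl9 and Cxcl10, interferon-induced attractants of Cxcr3+ T cells, differed by 1.31 and 1.05. Cxcl16, which binds Cxcr6, differed by 1.26. With all 14 members on the array the median was 0.20, so the shift was held by the members bright enough to be described.

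Of 6 chemokine receptors described, 1 was at least 2-fold higher and 1 lower. Cxcr4, the receptor of Cxcl12, lay at 8.49 in the control and 10.59 in icKO, and between 6.37 and 8.47 (median 7.41) elsewhere, so that icKO EAE stood 2.09 above every other array. Ccr1, a receptor of Ccl3 found on neutrophils and monocytes, lay at 9.42 and 8.06, a difference of -1.37, with the control EAE array the highest of 8 by 1.05. Ccr2, the monocyte receptor of Ccl2, differed by 0.37 and Cx3cr1 by -0.13.

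Interleukin 1 was the cytokine family with the largest differences. Il1b lay at 9.77 in the control and 11.79 in icKO, and between 8.42 and 10.32 (median 8.65) on the other arrays. It was 4.05-fold higher in icKO EAE, which stood apart from all other arrays by 1.47. Il1a lay at 12.99 and 14.59, and between 12.04 and 14.37 (median 13.34) elsewhere, a 3.04-fold difference in which icKO EAE and icKO p50 lay close together. The rest of the family did not share it: over 12 described genes of interleukin 1 and the inflammasome the median was 0.04, with Nlrp3, the inflammasome sensor, at 0.31, Il1rn, the receptor antagonist, at 0.20, and Pycard, the inflammasome adaptor, at -0.50. Tnf differed by 0.95 and its inhibitor of signalling Tnfaip3 by 0.75, in a family of 12 with a median of 0.06. Il6 was at 0.48. The NF-kB list had a median of -0.02 over 12 genes, with its subunits Rela and Rel at -0.24 and -0.25 and the inhibitors Nfkbiz and Nfkbia, themselves NF-kB targets, at 0.89 and 0.62. None of the 12 was 2-fold apart.

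**Figure D2:**
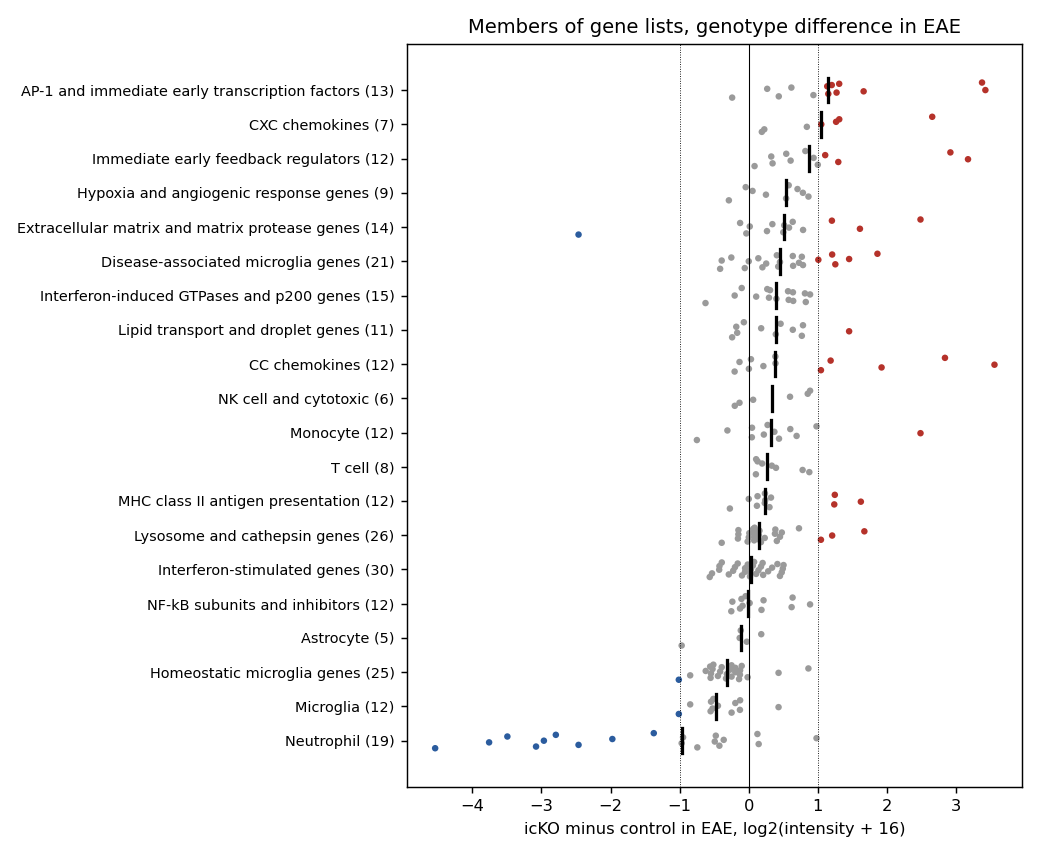
Genotype difference in EAE (horizontal axis, icKO minus control, log2 scale) of the described members of 20 gene lists, with the number described in brackets; each point is 1 gene, red at least 2-fold higher, blue at least 2-fold lower, and the black bar is the list's median. The immediate early and CXC chemokine lists lie to the right, with medians of 1.15 and 1.05, and the neutrophil markers to the left, with a median of -0.97.

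Genes of arginine metabolism, matrix and tissue remodelling included several that were highest on the icKO EAE array. Arg1, the arginase that competes with nitric oxide synthase for arginine, lay at 8.50 in the control and 11.32 in icKO, and between 7.88 and 8.69 (median 8.09) on the other arrays. The icKO EAE array stood 2.63 above the highest of the 7 others. Fn1, fibronectin, lay at 9.57 and 12.05, and between 8.06 and 9.72 (median 8.85) elsewhere, and icKO EAE stood 2.33 above the next array. Vim, the intermediate filament vimentin, differed by 1.61 and Tgfbi, a matrix protein induced by TGF-beta, by 1.20. Over 14 described matrix and protease genes, 3 were at least 2-fold higher and 1, the neutrophil collagenase Mmp8, lower (median 0.51; 0.19 with all 25 on the array). The other genes of alternative activation differed less or went the other way, with Mrc1, the mannose receptor, at -0.07, Retnla at -0.45, Chil3 at 0.98 and Il4ra, the interleukin 4 receptor chain, at -1.03. Over 17 genes of that list the median was 0.25 (0.11 with all 19 on the array), with 2 at least 2-fold higher and 1 lower.

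Fn1 and Chil3 also belong to the 12 described monocyte markers, 10 of which lay above 0, with a median of 0.32. The summed intensity of all 16 monocyte markers on the array was 35192 in the control and 39532 in icKO. The classical monocyte markers Ly6c2 and Plac8 lay lower in icKO, at -0.31 and -0.75. The part of monocytes in the Fn1 and Arg1 values was not tested.

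Acod1, which makes the antimicrobial metabolite itaconate, differed by 1.70, and Cybb, the catalytic subunit of the phagocyte oxidase, by 1.34. Both were highest on the icKO EAE array. The leukotriene genes Alox5 and Ltc4s lay at -0.76 and -0.86 and the oxidase subunit Ncf4 at -0.38, so that the list of 12 had a median of 0.12. Cd69, an early activation antigen of lymphocytes and myeloid cells, lay at 8.19 in the control and 10.52 in icKO, and icKO EAE stood 1.16 above the next array. Cd69 was in none of the lists by which the groups were counted. Cd3e, a chain of the T cell receptor complex, lay at 8.21 and 9.09, and all 8 described T cell markers were above 0 (median 0.26, and 0.12 with all 16 on the array), while Cd4 and Cd8a were below the brightness filter. The part of T cells in the Cd69 value was not tested.

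The class II molecules that present antigen to CD4+ T cells were higher in icKO. H2-Aa lay at 11.62 in the control and 13.24 in icKO, and between 8.60 and 11.77 elsewhere. H2-Eb1 lay at 13.06 and 14.30 and H2-Ab1 at 14.53 and 15.76. In all 3, icKO EAE was the highest of 8 by more than 1, and the naive arrays were the lowest. The difference was held by these chains: the 3 were 2-fold higher among 12 class II genes, and the master regulator Ciita (0.13), the peptide loader H2-DMa (0.32) and the lysosomal thiol reductase Ifi30 (0.24) differed little, for a median of 0.24. Class I genes had a median of 0.19 over 13, with none 2-fold apart.

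Disease-associated microglia genes were higher in icKO in part. Of 21 described, 16 lay above 0 and 5 were at least 2-fold higher (median 0.45). Clec7a, the beta-glucan receptor dectin-1, lay at 13.27 in the control and 15.14 in icKO, and between 9.12 and 14.24 (median 11.34) elsewhere. Fabp5, a fatty acid carrier, differed by 1.45, Gpnmb, a lysosomal glycoprotein, by 1.25, Cst7, a cysteine protease inhibitor, by 1.21, and Itgax, the integrin CD11c, by 1.01. The lipid genes Apoe and Lpl lay at 0.77 and 0.78. The receptor complex on which this programme depends did not share the direction, with Trem2 at -0.41 and its adaptor Tyrobp at -0.25, and Cd68, a lysosomal marker of phagocytes, lay at -0.39. Lysosomal genes had a median of 0.15 over 26, with Cstb, a cathepsin inhibitor, at 1.67 and Gla, alpha-galactosidase, at 1.04.

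Homeostatic microglial genes were lower in icKO by small amounts. Of 25 described, 23 lay below 0, with a median of -0.32, and 1 was 2-fold lower. That gene, Fcrls, an Fc receptor-like molecule of microglia, lay at 12.62 in the control and 11.61 in icKO, and between 11.93 and 13.54 (median 13.10) elsewhere, so that icKO EAE was the lowest of 8. P2ry12, the ADP receptor that guides microglial processes, lay at 13.52 and 12.67, and between 12.79 and 14.17 (median 13.71) elsewhere, again with icKO EAE lowest. Siglech, a sialic acid-binding lectin, differed by -0.51 and Sall1, the transcription factor of microglial identity, by -0.55, whereas Csf1r (-0.25), Tmem119 (-0.19) and Cx3cr1 (-0.13) were closer to 0. The 2 members above 0 were P2ry13, a further ADP receptor, at 0.43 and the small GTPase Rhob, itself an immediate early gene, at 0.86. The 12 microglial markers, all within this list, had a median of -0.48 and a summed intensity of 623020 in the control and 559412 in icKO.

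Neutrophil genes gave the largest differences downward. Of 19 described markers, 9 were at least 2-fold lower in icKO and none higher; 16 lay below 0 and 3 above, Chil3 (0.98), Stfa3 (0.14) and Stfa1 (0.13). The list had a median of -0.97 (-0.82 with all 23 on the array) that became -2.22 under a filter at the 70th percentile. That filter leaves out dimmer members and can pass a member through the control array alone, so the larger value adds no weight. S100a8 and S100a9 form calprotectin, an abundant cytosolic protein of neutrophils. S100a8 lay at 18.88 in the control and 15.12 in icKO, and at a median of 11.95 and at most 15.40 on the other arrays. S100a9 lay at 17.69 and 14.90, and between 10.55 and 15.25 (median 12.71) elsewhere. The control EAE array was the highest of 8 in both, and the icKO EAE array was higher than both naive arrays.

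The same held for proteins of the neutrophil granules. Retnlg, a resistin-like secreted protein, lay at 15.16 in the control and 10.62 in icKO, and between 8.43 and 11.60 (median 9.28) elsewhere, a 23.2-fold difference and the largest in either direction among the named kinds. Ltf, lactoferrin, lay at 13.69 and 10.72, and between 8.65 and 11.36 (median 9.18) elsewhere. Camp, the cathelicidin, differed by -3.08, Wfdc21 by -3.49, Mmp8 by -2.46 and Ngp, neutrophilic granule protein, by -1.97. In all of them the control EAE array was highest, by between 1.78 (Camp) and 3.56 (Retnlg) above the next array. Ly6g, the surface antigen by which neutrophils are sorted, lay at 10.52 and 9.14, a difference of -1.37. It did not share the form of the granule genes, as it lay between 9.23 and 10.15 on the 6 other arrays. The control EAE array was highest by only 0.37, and the icKO EAE array was the lowest of 8. Genes of the mature cell surface differed less, with Csf3r, the G-CSF receptor, at -0.43 and Cxcr2, the receptor of Cxcl2, at -0.49, and Elane and Mpo, made early in neutrophil development, were below the filter on both arrays. The summed intensity of all 23 neutrophil markers on the array was 954747 in the control and 124981 in icKO, most of it from S100a8 and S100a9 on both arrays.

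Further genes with the highest level on the control EAE array were Ifitm6, a transmembrane protein of the interferon-induced family, at 10.32 and 7.46, and Pglyrp1, a peptidoglycan-binding granule protein of neutrophils, at 11.13 and 9.22. On the 6 other arrays Ifitm6 reached at most 7.25 and Pglyrp1 at most 9.40. Cdr1 lay at 12.26 and 9.87, and between 7.01 and 10.11 elsewhere. Ly6a2 differed by -1.14 and Anxa1, annexin A1, abundant in neutrophils, by -0.98. How far the other differences between the EAE arrays depend on the neutrophil signal was not tested.

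Interferon-stimulated genes did not separate the arrays: of 30 described, none was 2-fold apart in either direction, and the median was 0.03, with Bst2 (tetherin) at -0.57 and Mx1 at 0.49 near the ends. The interferon-induced GTPases, which act on vacuoles of intracellular pathogens, and the p200 genes had a median of 0.40 over 15, with 12 above 0, none 2-fold apart and Gbp4 and Gbp2 highest at 0.89 and 0.82. Hypoxia genes had a median of 0.54 over 9, with none 2-fold apart (0.08 with all 13 on the array), led by the glucose transporter Slc2a1 at 0.86 and Hif1a, the oxygen-regulated factor, at 0.78. Lipid transport genes had a median of 0.39 over 11 (0.23 with all 16 on the array), with Fabp5 the only one 2-fold apart. Oxidative phosphorylation, proteasome, glycolysis and ribosomal protein genes had medians of 0.16, 0.14, 0.13 and 0.01. Toll-like receptors and adaptors lay at -0.09, with Cd14 (0.77) and Tlr2 (0.71) highest and Tlr7 (-0.53) lowest. Cell cycle genes lay at -0.19 over 21, with the proliferation marker Mki67 at -0.43 and the replication clamp Pcna at 0.71. Of 50 lists with at least 3 described members, 11 had a median of at least 0.3 and 3 of at most -0.3.

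Receptors and effectors of phagocytes were divided. C-type lectins and Siglecs had a median of 0.01 over 23, with Clec7a far above the rest, Clec4n, the fungal receptor dectin-2, at 0.86, Clec4a2, an inhibitory lectin, at -0.83 and Siglece, an inhibitory Siglec, at -0.69. Among 20 phagocytosis and scavenger receptors (median -0.06), Cd36, the receptor of oxidised lipids, differed by 1.05 and Axl, a receptor for apoptotic cells, by 0.64, while Mertk, its relative in homeostatic microglia, lay at -0.39. Complement genes had a median of 0.05 over 15. Of these, Cfb, factor B of the alternative pathway, lay at 9.25 in the control and 10.53 in icKO and was highest on the icKO EAE array by 1.28, while C1qa, C1qb and C1qc, the recognition subunits made by microglia, lay at 0.05, 0.36 and 0.26. Fc receptors had a median of 0.01 over 10, with 5 below 0, Fcrls the only one 2-fold apart and the activating receptor Fcgr4 highest at 0.46.

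Transcription factors of macrophages had a median of -0.06 over 19. The exception among them was Id2, an inhibitor of helix-loop-helix factors, which lay at 12.02 in the control and 13.46 in icKO and was 2.71-fold higher. Spi1, which encodes PU.1, lay at -0.28, Maf at -0.47 and Irf8 at 0.11, so that Id2 stood alone among the 19 in being 2-fold apart. Ion channels had a median of 0.02 over 12, with the potassium channel Kcna3 highest at 0.79 and Kcnk6 lowest at -0.64. Integrins and adhesion genes had a median of -0.01 over 19 and TGF-beta pathway genes one of -0.06 over 16, in which Tgfbi and the repressor Tgif1 (0.95) lay above all others. Heat shock, unfolded protein response, iron and oxidative stress, and cholesterol synthesis genes had medians of 0.18, 0.10, 0.08 and -0.01, and none of their described members was 2-fold apart.

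Genes outside the lists were also among those at least 2-fold higher. Scpep1, a lysosomal carboxypeptidase, lay at 11.08 in the control and 12.60 in icKO, and Anpep, the aminopeptidase CD13 of myeloid cells, at 8.12 and 9.59. Pla2g7, a phospholipase that degrades platelet-activating factor, lay at 8.88 and 10.11, Fgl2, a prothrombinase of macrophages, at 8.88 and 10.05, and Saa3, an acute phase protein, at 8.15 and 9.50. In these 5 genes the icKO EAE array stood at least 1 above each of the 7 others. Tagap, a GTPase-activating protein of activated T cells, lay at 12.84 and 14.14 and belonged with the immediate early genes in form, with the control EAE array lowest. Among the lower genes, ND3, a mitochondrial subunit of complex I, lay at 13.47 and 12.39, and Riox1, a nucleolar oxygenase, at 9.83 and 8.67. Neither stood apart on the control EAE array, since ND3 was as high on the p50 arrays and Riox1 lay 0.37 above the next.

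The NK and cytotoxic list was among the 11, with a median of 0.33 over 6 genes and Gzma, granzyme A, at 0.89 (0.12 with all 11 on the array). Dendritic cell markers had a median of 0.05 over 11 and markers of border-associated macrophages 0.24 over 8, with Ms4a7 highest at 0.96.

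Set among all 8 arrays, the genes at least 2-fold apart in EAE were sorted into 4 forms, which left out 33 of the 230 higher and 15 of the 96 lower genes. In the first, the icKO EAE array was the highest of 8, which held for 45 of the 65 higher genes of named kinds, and for 25 of them it stood at least 1 above the next array; Arg1, Fn1, Ccl2, Cxcr4, Il1b and H2-Aa belong here. In the second, the control EAE array was the lowest of 8, which held for 21 of the 65, 2 of them also in the first form. Fos, Fosb, Rgs1, Dusp1 and Jun stood at least 1 below the next array. In the third, the control EAE array was the highest of 8, which held for 18 of the 21 lower genes and by at least 1 for 12, 8 of them neutrophil markers. In the fourth, the icKO EAE array was the lowest of 8, which held for 3 of the 21, Fcrls, Prps1l1 and Ly6g, the last also in the third form. With the kinds that were only counted, it was the commonest form of the 96 lower genes, at 55, against 39 with the control EAE array highest. Over all described genes, the icKO EAE array was highest for 17.3% and lowest for 12.9%, and the control EAE array lowest for 6.97% and highest for 13.4%. A 2-fold difference by itself raises such shares, so they are a description.

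**Figure D3:**
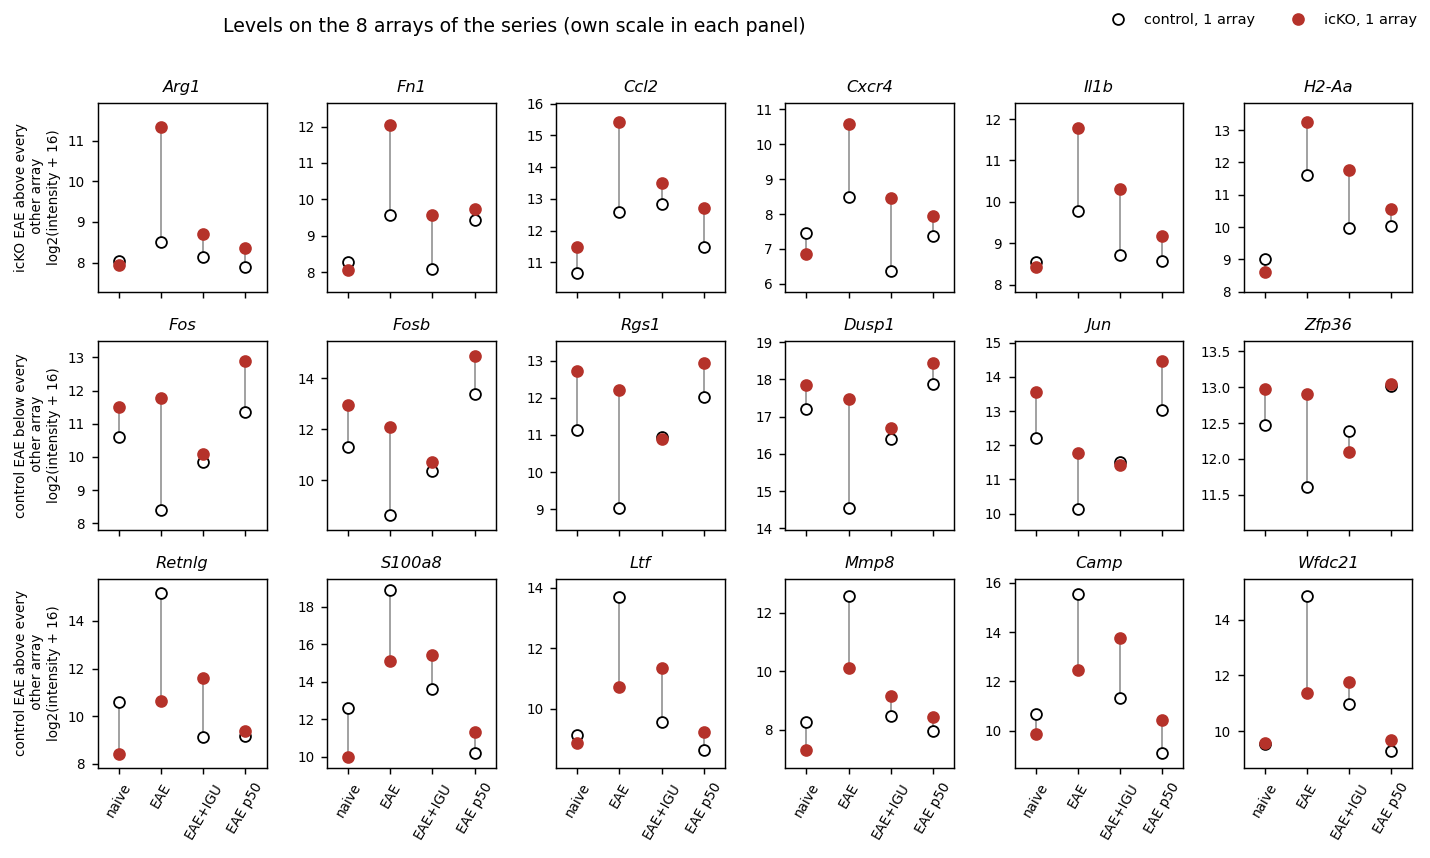
Level, log2(intensity + 16), of 18 genes on the control (open) and icKO (red) array of each state, 1 array per point, with an own scale in each panel. In the upper panels icKO EAE stands above the 7 other arrays, in the middle panels control EAE stands below them, and in the lower panels control EAE stands above them.

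The same genes were read in the genotype pairs of the other states, which share no array with the EAE pair. Of the 16293 genes, 44 (0.27%) were at least 2-fold higher and 259 (1.59%) lower in icKO among naive mice, 219 (1.34%) and 325 (1.99%) with iguratimod, and 43 (0.264%) and 14 (0.0859%) in the p50 pair. The naive pair shared 11 of the higher genes, 4.78% of the EAE genes and 25% of the naive ones, and 12 of the lower genes, 12.5% and 4.63%. The iguratimod pair shared 28 higher (12.2% and 12.8%) and 5 lower genes (5.21% and 1.54%). The p50 pair shared 19 higher genes, 8.26% and 44.2%, and 1 lower gene. Of the 230 higher EAE genes, 85 lay above 0 in the naive pair, 125 with iguratimod and 156 in the p50 pair. Their medians there were -0.13, 0.08 and 0.16, and 49.8%, 49.4% and 44.2% of all genes lay above 0. Of the 96 lower EAE genes, 49, 47 and 41 lay below 0, against 50.2%, 50.6% and 55.8% of all genes.

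Genes of named kinds that were at least 2-fold higher in icKO in both the naive and the EAE pair were Ccl3 (2.35 in naive mice), Fosb (1.64), Rgs1 (1.61), Jun (1.35), Il1a (1.25), Klf6 (1.55) and the linker histone H1f2 (1.86, and 1.16 in EAE). In the p50 pair, Ccl3 differed by 2.03, Fosb by 1.48, Jun by 1.41, Klf6 by 1.36, Il1a by 1.02, Rgs1 by 0.92 and H1f2 by 1.05. With iguratimod, Ccl3 differed by 0.74, H1f2 by 0.69, Fosb by 0.34, Klf6 by 0.21, Il1a by 0.06, Rgs1 by -0.06 and Jun by -0.07. Genes lower in both were S100a8 (-2.60 in naive mice), S100a9 (-2.49), Ngp (-2.33), Retnlg (-2.16) and Cdr1 (-1.43). With iguratimod all 5 were higher in icKO, between 1.22 (S100a9) and 2.46 (Retnlg). In the p50 pair all 5 lay above 0 as well, S100a9 at 1.45, Ngp at 1.40, S100a8 at 1.09, Retnlg at 0.19 and Cdr1 at 0.12.

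The list medians did not all split the states in the same way. The immediate early transcription factors had medians of 0.64 in the naive pair, 1.15 in EAE, 0.21 with iguratimod and 0.94 in the p50 pair. CXC chemokines, at 1.05 in EAE and 1.16 with iguratimod, were at -0.13 in naive mice and 0.21 in the p50 pair. Disease-associated genes were likewise at 0.45 and 0.69 against 0.04 and -0.01. Interferon-stimulated genes, at 0.03 in EAE, were at 0.77 with iguratimod. Homeostatic genes were at -0.32 in EAE, 0.18 in naive mice, 0.00 with iguratimod and -0.10 in the p50 pair. Neutrophil markers were at -0.97 in EAE, -0.30 in naive mice, 0.67 with iguratimod and 0.21 in the p50 pair.

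**Figure D4:**
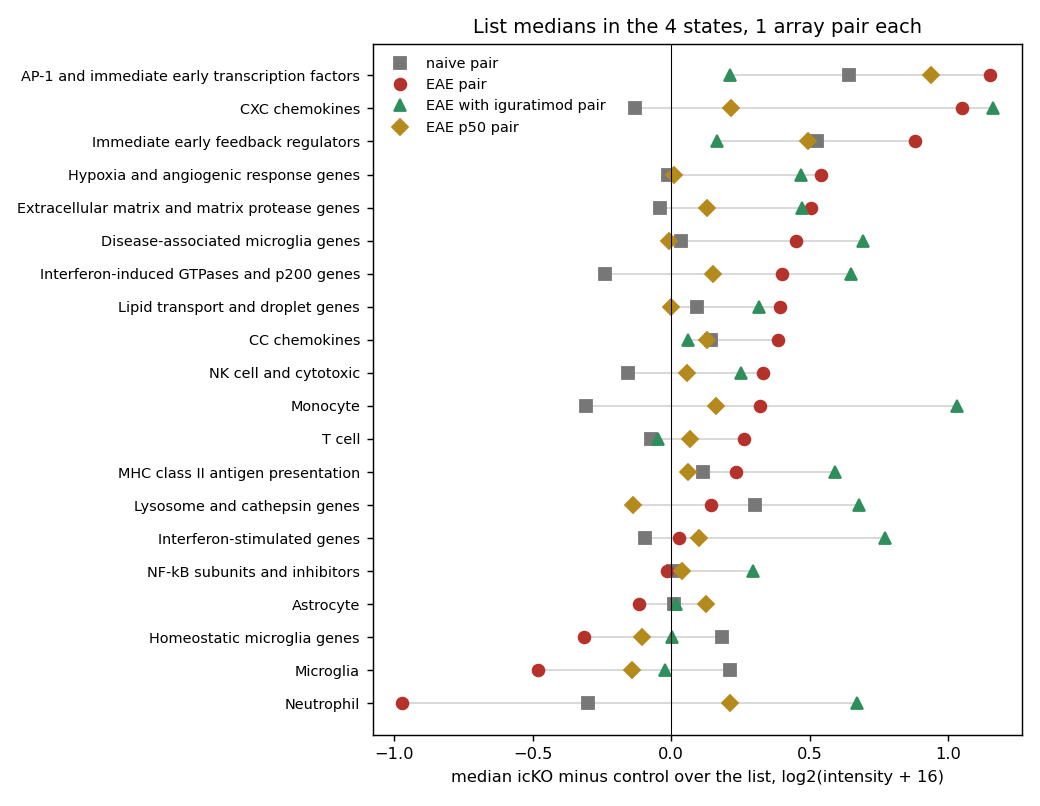
Median genotype difference (icKO minus control, log2 scale) of 20 lists in the naive, EAE, iguratimod and p50 pairs, each from 1 array pair. The EAE pair is rightmost for the immediate early lists, at 1.15 and 0.88, and leftmost for the neutrophil, microglia and homeostatic lists, at -0.97, -0.48 and -0.32.

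Whether the genotype difference in EAE departs from the 1 shared by the other 3 states was put to a linear model over all 8 arrays with limma, which left 2 residual degrees of freedom. Its standard errors (SE) and p-values measure how far the genotype differences of those 3 states disagree, not the variation between arrays or animals of a group. They are moderated, since limma blends the spread of each gene with a spread pooled over all genes. The pooled part carried 3.1 prior degrees of freedom, more than the 2 residual ones. Of 18238 genes tested, none passed an adjusted p of 0.05 (0%), and the lowest adjusted p was 0.64; 1088 genes, 5.97%, had an unadjusted p below 0.05. Dusp1 differed from the other states by 2.42 ± 0.25 (SE), Arg1 by 2.51 ± 0.33 and Ccl2 by 1.94 ± 0.31, with limma's adjusted p between 0.64 and 0.743. In the other direction Wfdc21 differed by -3.90 ± 0.33, Ifitm6 by -2.91 ± 0.32, Pglyrp1 by -2.35 ± 0.30 and Ccr1 by -1.71 ± 0.23, with limma's adjusted p between 0.64 and 0.729. Cxcl13 and Clec7a differed by 0.84 ± 1.94 and 0.09 ± 1.96, and their genotype difference with iguratimod, 4.80 and 4.86, was larger than in EAE. The model assumes that the 3 other pairs share 1 genotype difference, and the p50 arrays differ from the rest in Xist, the RNA of the inactive X chromosome, at 15.90 and 16.64 against 7.71 to 8.30 on the 6 other arrays. They were lower in the Y-linked genes Kdm5d, at 7.58 and 7.54 against 9.02 to 9.22, and Uty, at 7.34 and 7.57 against 8.98 to 9.60. Read by these genes, the p50 arrays were female and the 6 others, the EAE pair included, male. Rankings over all 8 arrays therefore mix the sexes. The part of sex in the fit and in the rankings was not tested. Without the p50 pair none of 18238 genes passed either, with a lowest adjusted p of 0.529 by limma.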

How the data were processed

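Microglial RNA from 8 groups of mice, 1 array each, had been labelled for whole-transcript Affymetrix arrays. Affymetrix Expression Console is the tool listed in the submitters' processing notes; its version and the summarisation and normalization behind the deposited intensities are not given in the sources used here. The intensities are linear, and values above the 65535 of a 16-bit scanner were kept. Precision is limited by the number of arrays.

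Of 65956 rows, 31263 carried 1 gene symbol after updating through RefSeq (GRCm38.p6), 1487 several and 33206 none; only the first were named, giving 30707 genes, each by its brightest probe set. Values were used as log2(intensity + 16), filtered at the 50th percentile. Gene members, the 57 lists (968 genes) and tests were chosen with earlier results of these data known. Named were the 20 highest and 20 lowest differences above the 60th percentile, list members that were 2-fold apart or largest, genes 2-fold apart in naive and EAE mice, and lowest p-values; small RNAs, predicted genes, RIKEN clones, receptor segments of lymphocytes, chemosensory receptors and pseudogenes were not named. The model across states used limma 3.58.1 in R 4.3.3 with Benjamini-Hochberg adjustment. A check on simulated data held no differences between states and required only that the mean estimate of an added change came out right. The p-values of the model rest on how far the genotype differences of the naive, iguratimod and p50 pairs disagree, since each group is 1 array. In limma that spread is moderated by the spread over all genes. The number of animals behind an array is not stated. Python 3.11.15 did the rest. Genes of multicopy families can share probe sequence, so their values are uncertain. Alternatives were other pseudocounts, filters, scalings and probe set rules, a 1.5-fold threshold and, for limma, leaving out a pair. Promoter windows came from RefSeq. The level of the deleted gene is not reported here.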

Additional observations from a re-analysis of the deposited data

Results flagged for a closer look

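The neutrophil markers had a median genotype difference of -0.97 in EAE and of 0.67 with iguratimod, opposite in sign; each comes from 1 array pair and the difference between states was not tested. The monocyte markers had a median of 0.32 in EAE and -0.31 in naive mice, likewise opposite and likewise not tested.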

How the results depend on the processing

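The counts of genes at least 2-fold apart stayed within 1.5 times of 230 and 96 under pseudocounts of 1 and 64, without a filter, with the 70th percentile as filter, under quantile normalization, median centring and the mean of probe sets, ranging from 167 to 269 higher and from 71 to 124 lower. At 1.5-fold the counts were 874 and 556, by the wider threshold itself. Without a filter 7 lists passed a median of 0.3 in either direction, against 14, since dim members entered. Of 207 named genes and list members followed, none of the 64 that were 2-fold apart turned its sign, and 5 came below 2-fold under at least 1 alternative; of 50 list medians, 10 moved by more than 0.2 and none of those past 0.3 turned. The limma model called 0 genes under all 7 of its alternatives, with lowest adjusted p-values from 0.183 (without the naive pair) to 0.946 (without the iguratimod pair), and with 840 to 1791 genes at an unadjusted p below 0.05. Leaving out a replicate was not possible within the EAE pair, which holds 1 array a side. No paired analysis was possible because the labels carry no replicate numbers; the match of the genotypes within a state is already a term of the limma model.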

Other observations

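Beyond the named genes, 16436 rows of the array with no single gene name were bright enough on 1 of the EAE arrays, of which 365 (2.22%) were at least 2-fold higher and 463 (2.82%) lower in icKO. Among the named genes that were counted only, small RNAs gave 63 higher and 39 lower of 1924, predicted genes and numbered loci 52 and 16 of 3304, chemosensory receptors 37 and 12 of 765, and antigen receptor segments 4 and 4 of 199.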
